A study of Salmo trutta with 24 samples.

Results

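The lowest of the 3 E2 concentrations tested was compared with water alone in liver of male brown trout. The fish were chosen by the exposure that the sample labels give: 3 fish exposed to 1.9 ng E2/l (17β-estradiol) and 6 control fish held in water without E2 or linuron, together 9 of the 24 fish of the series. All were sexually mature males, taken from a population that was 2 yr old, and each library was made from the liver of a single fish with no pooling. Fish exposed to 18.1 ng E2/l (3) and to 34.4 ng E2/l (3) serve only for direct comparisons, and the linuron groups were not analysed here. A field of the labels gives an exposure of 4 days and the protocol text of the same labels 14 days, and the study's methods give the shorter time. Each E2 concentration was run in a single tank and the control in a pair of tanks, and the tank of each control fish is not given in the labels, so a tank effect and an effect of the concentration cannot be told apart in any value below. The p-values therefore measure the spread between fish.

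In egg-laying vertebrates, estrogen from the ovary reaches the liver and binds estrogen receptors in hepatocytes, which then make the yolk precursor vitellogenin and, in fish, zona pellucida proteins of the egg envelope. Males carry the same genes and receptors, so that hepatic vitellogenin, egg envelope transcripts and *esr1* (estrogen receptor 1, which is itself induced by estrogen) are widely used as signs of exposure of male fish to estrogens. The question put to these 9 fish is which transcripts, if any, differed from the controls at the lowest concentration.

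Reads had been counted on the contigs of a de novo assembly. The table held 55449 transcripts, of which 32242 carried an annotation, with 10753 distinct Ensembl annotations, mostly of zebrafish genes. Total counts ran from 3885077 to 8616341 in the controls and from 6305304 to 8269487 in the exposed fish. Levels are CPM, reads scaled to a common library size, by the TMM method, and unless a transcript is named the counts of all transcripts with the same annotation were summed. The 22 hepatocyte markers measured summed to between 203940 and 277740 CPM in the controls and between 213090 and 263710 CPM in the exposed fish, the largest sum of the marker lists used. Control fish 1 stood apart on the high side of the other controls in 387 annotations and control fish 3 in 165, against 44 to 124 for each of the other controls. The rule was a test of the gap to the nearest fish, with a level of about 1 of 20 groups for normally distributed values. That level covers any fish on either side, and CPM were used without a log. It therefore gives no expected number for a single fish, and the counts only compare the controls with each other. Results that rest on these fish are given with and without them. Contig sequences were not used here, and no sequence is shown.

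No annotation was differentially expressed at 1.9 ng E2/l in edgeR's quasi-likelihood test (n = 3 against 6, Benjamini-Hochberg adjusted p under 0.05), and the lowest adjusted p was 0.739. At an unadjusted p under 0.05 there were 264 annotations with a higher level in exposed fish, 2.46% of those tested, and 305 with a lower one, 2.84%, together 569 or 5.29%. With library totals in place of TMM, which moved the median log2 fold change of all annotations from -0.00 to -0.13, this split was 96 higher and 432 lower. DESeq2's Wald test called 8 annotations, 0.0744% of those tested, and edgeR's exact test called 0. Taking single transcripts, the quasi-likelihood test called 0 of 55449, with 897 (1.62%) higher and 1358 (2.45%) lower at an unadjusted p under 0.05, together 4.07%, whereas DESeq2 called 12 (0.0216%) and the exact test 3 (0.00541%). All 3 exposed fish lay above all 6 controls in 141 annotations, 1.31% of the 10753, and below all of them in 132, 1.23%.

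The mean distance between an exposed and a control fish, taken as the root mean square log2 difference of the 500 transcripts that differed most in each pair, was 3.91, against 3.76 among the exposed fish and 4.02 among the controls. The ratio of the distance to controls over that among exposed fish was 1.04, which 20 of the 84 ways of choosing 3 of the 9 fish reached or exceeded (exact permutation test, one-sided p = 0.238, smallest possible 0.0119). Without exposed fish 2 the ratio was 1.097, the highest of its 28 arrangements (exact permutation p = 0.0357), and without exposed fish 3 it was 0.989. The exposed fish differed in how often each stood outside the range of the controls. Fish 1 lay above all 6 controls in 16.3% of annotations and below them in 14.3%, fish 2 in 10.7% and 8.96%, and fish 3 in 14.2% and 14.0%.

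Of the 8 annotations that passed DESeq2's test, 2 were higher and 6 lower in exposed fish, and none passed the quasi-likelihood test. The mRNA of *adar* (ENSDARG00000012389), an enzyme that edits adenosine to inosine in double-stranded RNA and whose long form is interferon-inducible in mammals, had 12.6, 15.4 and 17.3 CPM in exposed fish 1, 2 and 3 and from 3.94 to 8.61 CPM in the controls (median 5.43). All exposed fish were above all controls, and the log2 fold change was 1.41 (standard error, SE, of 0.26, DESeq2 adjusted p = 0.0184, quasi-likelihood adjusted p = 0.739). A protein disulfide isomerase-related protein (ENSDARG00000009001), of the family that forms disulfide bonds in the endoplasmic reticulum, had 211, 267 and 251 CPM against 116 to 157 (median 144). Its log2 fold change of 0.77 (SE 0.18) was the smallest of the 8 in size, with the groups again apart.

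Among the 6 lower annotations, *spns1* (ENSDARG00000011925), which encodes a lysosomal lipid transporter, had all exposed fish below all controls. Its level was 1.60, 1.49 and 1.46 CPM in the exposed fish and 4.53 to 6.52 CPM in the controls (median 5.26), a log2 fold change of -1.83 (SE 0.34). The mitochondrial oxoglutarate carrier *slc25a11* (ENSDARG00000035741) had 6.42, 12.99 and 8.94 CPM against 18.8 to 33.1 (median 22.9), with a log2 fold change of -1.34 (SE 0.27). In *apoa4* (ENSDARG00000040298), an apolipoprotein of triglyceride-rich particles and the most abundant of the 8, levels were 815, 2072 and 1096 CPM against 2376 to 4131 (median 3196). Its log2 fold change was -1.27 (SE 0.32), and fish 2 lay close to the lowest control. The inositol phosphate kinase *ip6k2* (ENSDARG00000008310) had 16.04, 34.6 and 35.8 CPM against 38.95 to 93.2 (median 87.4), a log2 fold change of -1.41 (SE 0.34).

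For the anion exchanger *slc26a4* (ENSDARG00000069431) and *slc25a38b* (ENSDARG00000074533), a mitochondrial glycine carrier needed for heme synthesis, the groups overlapped through control fish 4. The level of *slc26a4* was 3.21, 7.17 and 4.99 CPM in exposed fish and 5.66 CPM in control fish 4, while the other controls had 21.9 to 36.6, and its log2 fold change was -2.17 (SE 0.49). That of *slc25a38b* was 14.8, 26.6 and 12.1 CPM against 24.2 in control fish 4 and 50.02 to 104 in the others, a log2 fold change of -1.81 (SE 0.42). Without any single fish, each of the 8 annotations kept its direction, with the log2 fold change of *adar* between 1.31 and 1.57 and that of *spns1* between -1.88 and -1.77.

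**Figure D1:**
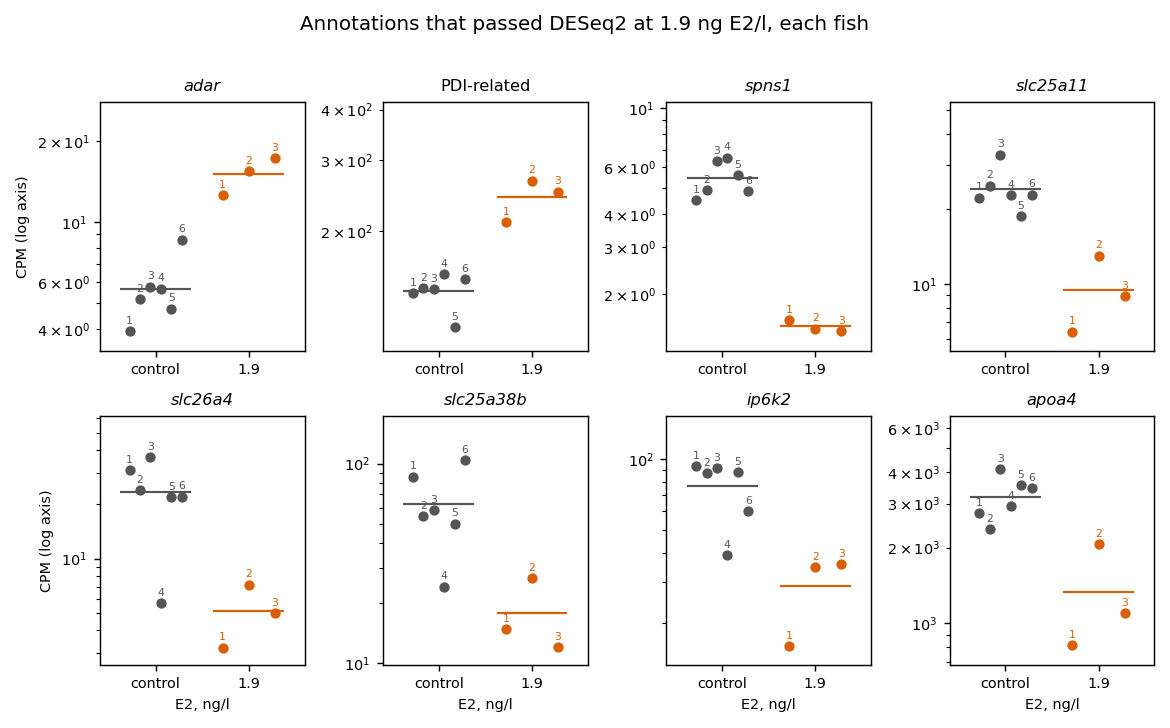
Level of the 8 annotations that passed DESeq2's test, in CPM on a log axis, for the 6 control fish (grey) and the 3 fish exposed to 1.9 ng E2/l (orange). Points are single fish with their numbers and lines are group means; the groups are apart in 6 panels and overlap through control fish 4 in those of *slc26a4* and *slc25a38b*.

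At the level of single transcripts, 7 of DESeq2's 12 calls carried an annotation, and *spns1*, *slc25a11*, *slc26a4* and *apoa4* were among them. The other 3 annotated ones were contigs of *bcl6a*, *errfi1* and *rab5ab*. The transcriptional repressor *bcl6a* (ENSDARG00000070864), whose ortholog in mouse regulates lymphocyte differentiation and sex-biased liver genes, had 24.7, 24.6 and 28.9 CPM summed over its 2 contigs, against 0.985 to 12.7 (median 5.15) in the controls. The log2 fold change of this sum was 2.17 (SE 0.53, DESeq2 adjusted p = 0.164), and all exposed fish were above all controls. The contig of *errfi1* (ENSDARG00000070171), an inhibitor of epidermal growth factor receptor signalling, had 4.70, 5.68 and 5.41 CPM against 10.5 to 27.7, and an unannotated contig of the same assembly component had 39.5, 35.8 and 36.9 CPM against 75.4 to 177. In the sum over all contigs annotated as *errfi1* the log2 fold change was -0.86 (SE 0.30), with overlapping groups. The contig of *rab5ab*, an early endosome GTPase, had 0.972, 1.53 and 1.31 CPM against 3.53 to 7.71. The study's own test also called *bcl6a* and *spns1* at this concentration, and the study proposes that its few calls may reflect tank effects.

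The 3 transcripts called by the exact test were the contig of *bcl6a* and 2 unannotated contigs, and all 3 were higher in exposed fish. Contig comp62193_c0_seq1 had 25, 26 and 11 counts in the exposed fish, 2 in control fish 5, 4 in control fish 6 and none in the other controls. Contig comp85649_c2_seq1 had 1.62, 4.04 and 5.58 CPM against 0.271 to 0.934. What either encodes is not known, and both were looked at only because they passed a test. Every listed transcript reached 1.03 CPM or more in its third-highest fish, while the highest control had 0.543 CPM in comp62193_c0_seq1 and 0.934 in comp85649_c2_seq1. Both contigs may thus have been listed only because the exposed fish were high. Their calls and direction are therefore not independent evidence of a difference. The other 2 unannotated contigs of DESeq2's list were both lower in exposed fish: comp86116_c1_seq1 at 1.62, 4.37 and 2.95 CPM against 6.51 to 26.6, and comp95781_c0_seq1 at 1.13, 1.53 and 1.48 CPM against 3.30 to 6.85.

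Further annotations with separate groups and a low unadjusted p did not pass any adjusted test. On the lower side they included a pair of genes of cell death pathways, *bad b* (ENSDARG00000054937), a BCL2 antagonist, at 0.401, 1.22 and 1.04 CPM against 2.46 to 5.32, and *aifm2* (ENSDARG00000077549), an oxidoreductase that in mammals protects membranes from lipid peroxidation, at 2.41, 5.55 and 5.41 CPM against 8.24 to 16.4. Their log2 fold changes were -2.04 (SE 0.53) and -1.27 (SE 0.33). On the higher side, the membrane protein stomatin (ENSDARG00000003835) had 33.5, 32.9 and 40.3 CPM against 14.8 to 28.2, and the endocytic adaptor *dab2* (ENSDARG00000031761) had 115, 73.7 and 109 CPM against 35.7 to 61.8.

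The genes by which an estrogen response would be read were measured in part. In the comparison at 34.4 ng E2/l, 134 transcripts of 6 annotations encoded vitellogenins or nothepsin, the protease that cleaves vitellogenin in the liver of fish, and summed to between 39160 and 44040 CPM in the 3 exposed fish against 0.347 to 11.1 CPM in the controls (median 4.57). None of these 134 transcripts was listed in the comparison at 1.9 ng E2/l, so their levels in the fish at 1.9 ng E2/l were not analysed here. The third-highest fish reached 1.03 CPM or more in every transcript listed there, and none of the 134 reached 1 CPM in 3 controls. If 1.03 CPM in 3 fish was the rule for listing, a transcript at that level in all 3 exposed fish would have been listed. A transcript high in 1 exposed fish would have been listed only if other fish brought the number at that level to 3. The absence of the 134 therefore does not exclude a high level in 1 exposed fish. The study states that sequencing did not detect vitellogenin transcripts in fish at the lower concentrations. By quantitative PCR on more males it found no significant difference in *vtg1*, a vitellogenin, at the lower concentrations. It also reports no increase there in the mRNA of nothepsin.

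The 4 zona pellucida genes were listed, and in each of them exposed fish 1 stood above all 6 controls, fish 2 within their range, and fish 3 within or below it. The level of *zp3a.2* (ENSDARG00000042130) was 484 CPM in fish 1, 31.7 in fish 2 and 18.1 in fish 3, and from 14.98 to 88.5 CPM in the controls (median 56.7). Its log2 fold change was 1.75 (SE 0.78, unadjusted p = 0.0430, adjusted p = 0.910 in the quasi-likelihood test). For *zp3a.1* (ENSDARG00000042129) the levels were 82.6, 9.33 and 4.16 CPM against 1.15 to 14.0 (median 10.4), a log2 fold change of 1.80 (SE 0.73). Both encode proteins of the envelope that surrounds the egg, as do *zp2.2* and *zp2.5*.

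In *zp2.5* (ENSDARG00000086522) the levels were 184, 23.7 and 11.9 CPM against 8.93 to 76.3 (median 34.5), and the log2 fold change was 0.99 (SE 0.73). In *zp2.2* (ENSDARG00000091737) they were 161, 17.6 and 3.74 CPM against 4.63 to 63.0 (median 21.8), with a log2 fold change of 1.34 (SE 0.89). Without exposed fish 1 all 4 genes turned to the lower side, with log2 fold changes of -1.09 for *zp3a.2*, -0.42 for *zp3a.1*, -1.04 for *zp2.5* and -1.15 for *zp2.2*. Each read was given to 1 contig, and how reads were divided between related genes such as *zp2.2* and *zp2.5* was not tested, so their separate levels are uncertain.

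The same fish was high in *esr1* (ENSDARG00000004111): 128 CPM, against 24.3 and 15.6 in fish 2 and 3 and 12.5 to 39.02 in the controls (median 22.3). The log2 fold change of *esr1* was 1.29 (SE 0.54, unadjusted p = 0.0336, adjusted p = 0.910) and -0.20 without fish 1. The other receptors lay within the range of the controls in all exposed fish. *esr2a* (ENSDARG00000016454) had 8.42, 10.7 and 11.4 CPM against 2.96 to 13.5, and *esr2b* (ENSDARG00000034181), the most abundant of the 3 receptors by counts in this table, had 345, 424 and 508 CPM against 266 to 586. Their log2 fold changes were 0.33 (SE 0.37) and 0.07 (SE 0.26). The peroxisomal enzyme *crot* (ENSDARG00000040352), carnitine O-octanoyltransferase, again had its highest level in fish 1, at 309 CPM against 99.7 and 75.3 in the others and 52.99 to 187 in the controls, and its log2 fold change of 0.63 (SE 0.44) was -0.26 without that fish. By quantitative PCR on more males, immature ones included, the study reports significantly higher *esr1* and *crot* at the lowest concentration than in controls. The study reports higher *esr1* there in immature females too. In males it names no other assayed transcript as significant at the lowest concentration, and *zp2.5* and *zp3a.2* were among those assayed. The sequenced fish were among these males, and the part of fish 1 in the PCR result was not tested.

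**Figure D2:**
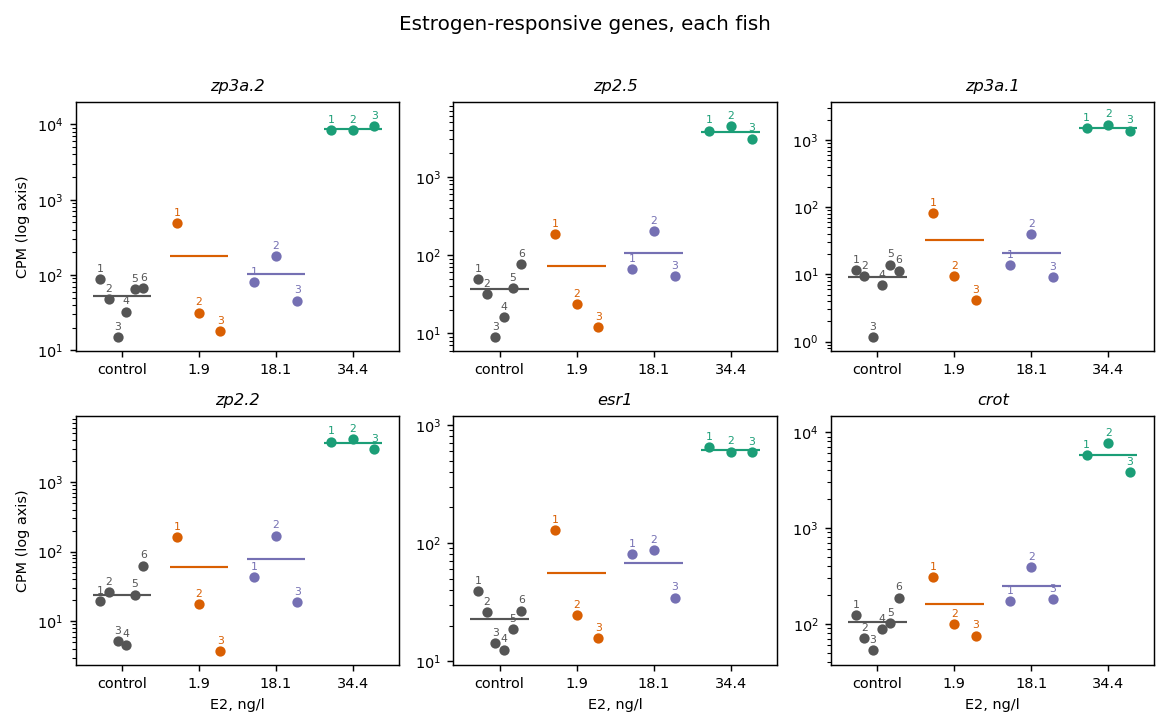
Level of 4 zona pellucida genes, *esr1* and *crot* in CPM on a log axis, in control fish (grey) and in fish at 1.9 (orange), 18.1 (purple) and 34.4 ng E2/l (green), each concentration scaled with the same controls in its own table. Points are single fish with their numbers and lines are group means; fish 1 at 1.9 ng E2/l is above every control in all 6 panels while fish 2 and 3 are not.

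Compared directly with the fish at 34.4 ng E2/l and with no controls in the fit, these genes were lower at 1.9 ng E2/l, exposed fish 1 included. The log2 difference in *zp3a.2* was -5.50 (SE 1.03, quasi-likelihood adjusted p = 0.00861, 8401 to 9529 CPM at 34.4 ng E2/l), and that in *esr1* was -3.33 (SE 0.61, adjusted p = 0.00794, 589 to 653 CPM). All 10 annotations measured among the 20 genes that the study lists as most upregulated at 34.4 ng E2/l passed this test in that direction, where 2.52% of all annotations did. That list was chosen on the fish at 34.4 ng E2/l, so its count is not independent evidence of direction. Against the controls, exposed fish 1 lay above all 6 in 6 of the 10, fish 2 in 0 and fish 3 in 1, where 16.3%, 10.7% and 14.2% of all annotations were.

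The 4 genes of that list that are not estrogen receptors, zona pellucida genes or *crot* were near the controls. The water channel *aqp12* (ENSDARG00000043279) had 8.82, 5.41 and 11.4 CPM against 3.94 to 10.3, with a log2 fold change of 0.46 (SE 0.35). The phospholipid acyltransferase *lpgat1* (ENSDARG00000013542) had 2.81, 2.43 and 2.495 CPM against 0 to 4.38, with a log2 fold change of -0.02 (SE 0.65). The values were -0.17 (SE 0.33) for *lrrc58b* (ENSDARG00000063509) and 0.24 (SE 0.27) for si:dkey-179j5.2 (ENSDARG00000060325), the latter with 73.6, 132 and 113 CPM against 61.5 to 134.

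The study's list of genes downregulated at 34.4 ng E2/l matched 21 annotations, of which 19 had a log2 fold change below 0 at 1.9 ng E2/l, with a median of -0.86 against -0.00 for all annotations. At an unadjusted p under 0.05, 8 of the 21 were lower and 0 higher, where 2.84% of all annotations were lower. These counts share the 6 controls with the comparison from which the list was taken, and the list is not independent of them. Without control fish 1, 18 were below 0, 6 were lower at an unadjusted p under 0.05 and the median was -0.48. Without exposed fish 1 these were 18, 4 and -0.90. In these 2 fits 279 of 10752 and 215 of 10753 annotations were lower at that threshold. Control fish 1 stood apart, at 1580 CPM, in *igfbp1a* (ENSDARG00000014947), a binding protein of insulin-like growth factors that is induced by fasting. Levels were 153, 120 and 136 CPM in exposed fish and 49.1 to 1580 in the controls (median 342). The log2 fold change of *igfbp1a* was -1.90 (SE 0.80) and -1.11 without control fish 1.

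In 1 of the 21, si:dkey-238o13.4 (ENSDARG00000078847), all exposed fish lay below all controls, at 138, 120 and 115 CPM against 150 to 284, with a log2 fold change of -0.87 (SE 0.24, adjusted p = 0.846). A gene annotated as chromosome 5 open reading frame 4 (ENSDARG00000023820) had 36.3, 103 and 66.5 CPM against 101 to 186, a log2 fold change of -1.201 (SE 0.32). The crosslinking enzyme *tgm2l* (ENSDARG00000093381) had 3.21, 10.7 and 6.45 CPM, within a wide range of 0.343 to 46.1 in the controls. Tyrosine aminotransferase (*tat*, ENSDARG00000069630), which starts tyrosine breakdown, differed little, at 1306, 1284 and 2338 CPM against 1343 to 2240 and a log2 fold change of -0.07 (SE 0.26). In the direct comparison with 34.4 ng E2/l, which uses no controls, 11 of the 21 were higher at 1.9 ng E2/l and 0 lower, where 4.09% of all annotations were higher. Among them were *tat*, with a log2 difference of 2.14 (SE 0.28, adjusted p = 0.00108) and 392 to 431 CPM at 34.4 ng E2/l, and *igfbp1a*, with 3.85 (SE 0.36, adjusted p = 0.000191). The list was chosen on the fish at 34.4 ng E2/l, so this count of 11 is not independent evidence of direction.

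Genes of mitochondrial energy production lay slightly lower in exposed fish as a group, with no member passing an adjusted test. Of 80 subunits of oxidative phosphorylation, the respiratory chain and ATP synthase of the inner mitochondrial membrane, 76 had a log2 fold change below 0, and the median was -0.26. At an unadjusted p under 0.05, 12 of the 80 were lower and 0 higher, where 2.84% of all annotations were lower. In 5 all exposed fish were below all controls, where 1.23% of annotations were. The cytochrome bc1 subunit annotated as complex III subunit VII (ENSDARG00000029064) had 12.6, 15.96 and 17.3 CPM against 21.3 to 33.7 (median 28.2), a log2 fold change of -0.86 (SE 0.22). The core protein of the same complex (ENSDARG00000014794) had 5.01, 12.3 and 4.99 CPM against 11.5 to 29.2, with a log2 fold change of -1.31 (SE 0.40). A cytochrome c oxidase VIa subunit (ENSDARG00000022438) had 31.3, 42.7 and 28.5 CPM against 42.4 to 56.3, with fish 2 just inside the range of the controls.

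Leaving out single fish gave medians of this list between -0.33 and -0.22. Without control fish 1, which stood apart from the other controls most often, 76 members were again below 0 and 18 had an unadjusted p under 0.05. Without exposed fish 1, 68 were below 0 and 4 had a p under 0.05. These were 72 and 19 without exposed fish 2, and 67 and 4 without exposed fish 3. Of all annotations, 279 of 10752 were lower at that threshold without control fish 1 and 215 of 10753 without exposed fish 1. Without exposed fish 3, fewer of all annotations were lower than with all fish. Exposed fish 1 lay below all controls in 32 of the 80 annotations, fish 2 in 16 and fish 3 in 38. Of all annotations, 14.3%, 8.96% and 14.0% were below all controls in these fish. Erythrocyte and macrophage markers, whose summed levels are given below, were higher in exposed fish, and their part in these values was not tested. In bulk liver, fewer cells of a type and less RNA per cell cannot be told apart.

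Mitochondrial ribosomal proteins, which translate the genes of the mitochondrial genome, were also mostly lower. Of 74, 57 were below 0, the median was -0.22, and 4 were lower at an unadjusted p under 0.05, where 2.84% of all annotations were. The subunit *mrps30* (ENSDARG00000075326) had 11.6, 14.9 and 6.45 CPM against 18.1 to 25.7 (median 21.3), a log2 fold change of -0.94 (SE 0.26), and *mrpl20* (ENSDARG00000090462) had 2.81, 4.87 and 2.495 CPM against 5.59 to 8.119, a log2 fold change of -1.03 (SE 0.32). In fatty acid oxidation 26 of 42 annotations were below 0 with a median of -0.16, and 6 were lower at an unadjusted p under 0.05, which became 3 without exposed fish 1 and 1 without exposed fish 3, the last being near the 2.84% of all annotations. The isomerase *eci1* (ENSDARG00000018002), which processes unsaturated fatty acids, had 20.7, 26.8 and 23.7 CPM against 35.5 to 49.2, a log2 fold change of -0.72 (SE 0.20). The α-subunit of the mitochondrial trifunctional protein (ENSDARG00000060594) had 106, 154 and 101 CPM against 149 to 226, with overlapping groups.

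Amino acid catabolism and the urea cycle had 39 of 54 annotations below 0, a median of -0.21, and 8 lower and 0 higher at an unadjusted p under 0.05, with 2 lower when exposed fish 1 was left out and 4 when exposed fish 3 was. Propionyl-CoA carboxylase α (ENSDARG00000028982), of branched-chain amino acid breakdown, had 15.8, 26.9 and 22.2 CPM against 26.9 to 44.9, and its log2 fold change was -0.77 (SE 0.24). Glutamine synthetase (ENSDARG00000017339), which fixes ammonia, had 226, 335 and 437 CPM against 401 to 907, a log2 fold change of -0.93 (SE 0.35). Heat shock proteins and cytosolic chaperones had 31 of 37 below 0, a median of -0.45, and 6 lower at an unadjusted p under 0.05, against the same 2.84%. These became 3 without control fish 1, where 279 of 10752 annotations were lower, 1 without exposed fish 1 and 0 without exposed fish 3. Without exposed fish 2 they were 11, where 404 of 10752 annotations were lower. The count of 1 is near the share of all annotations, 215 of 10753 without exposed fish 1. The chaperonin subunit *cct7* (ENSDARG00000007385) had 11.8, 27.1 and 18.1 CPM against 24.4 to 34.9, and *ahsa1*-like (ENSDARG00000011127), a cochaperone of Hsp90, had 13.6, 18.8 and 12.3 CPM against 17.1 to 31.9.

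**Figure D3:**
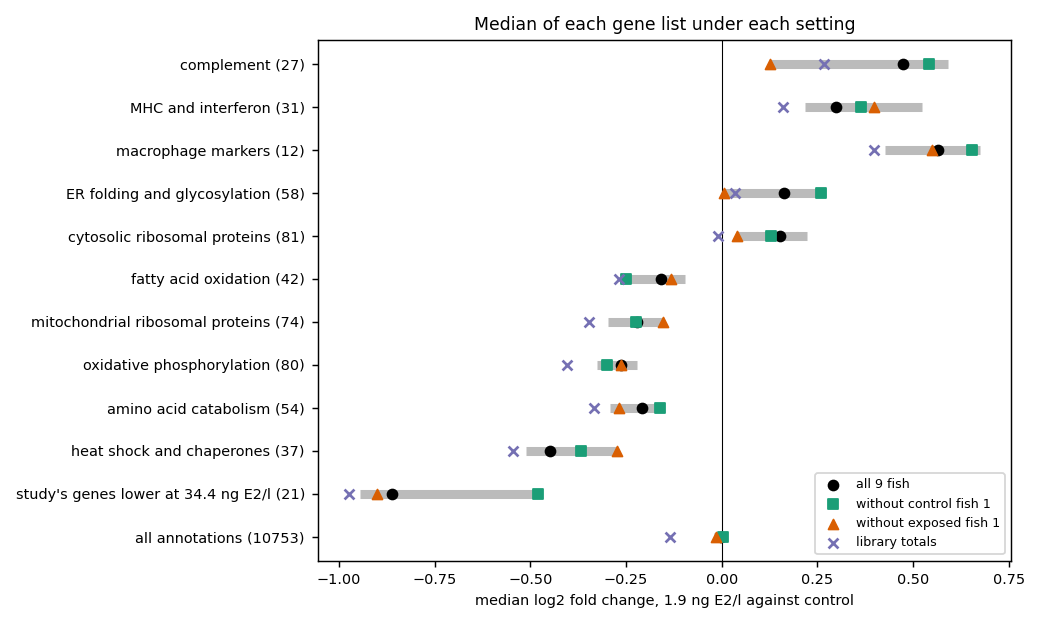
Median log2 fold change at 1.9 ng E2/l against control over the members of each gene list, with the number of annotations in brackets: all 9 fish (circle), without control fish 1 (square), without exposed fish 1 (triangle) and with library totals in place of TMM (cross). Grey bars span the values without each fish in turn; oxidative phosphorylation stays between -0.33 and -0.22, and complement reaches 0.13 without exposed fish 1.

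Some genes of the secretory pathway lay higher in exposed fish, most often in exposed fish 1. Of 58 annotations of the translocation, folding and glycosylation machinery of the endoplasmic reticulum, 38 were above 0 and the median was 0.16. At an unadjusted p under 0.05, 4 were higher and 0 lower, where 2.46% of all annotations were higher. In 3 all exposed fish were above all controls, where 1.31% of annotations were. The disulfide isomerase *pdia4* (ENSDARG00000018491) had 504, 327 and 382 CPM against 145 to 308 (median 216), a log2 fold change of 0.87 (SE 0.25). Calreticulin (ENSDARG00000043276), a calcium-binding chaperone of glycoproteins, had 1246, 885 and 1288 CPM against 553 to 800 (median 710), a log2 fold change of 0.70 (SE 0.20). For the chaperone *hsp90b1* (ENSDARG00000003570) the levels were 1243, 949 and 1180 CPM against 436 to 690 in controls 2 to 6 and 1244 in control fish 1, so that its log2 fold change was 0.73 (SE 0.30) with that fish and 0.9985 without it.

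Exposed fish 1 was above all controls in 24 of these 58 annotations, fish 2 in 5 and fish 3 in 6, which is 41.4%, 8.62% and 10.3% against 16.3%, 10.7% and 14.2% of all annotations. Without fish 1, 29 were above and 29 below 0 and the median was 0.01, and with library totals the median was 0.04. Among 81 cytosolic ribosomal proteins, 77 were above 0 with TMM scaling and 34 with library totals, with medians of 0.15 and -0.01, so the direction of this group depends on the scaling. Fish 1 was above all controls in 48 of them (59.3%), fish 2 in 0 and fish 3 in 7 (8.64%), against 16.3%, 10.7% and 14.2% of all annotations. Only 1 member, *rpl15* (ENSDARG00000009285), had an unadjusted p under 0.05, at 239, 178.7 and 197 CPM against 124 to 186, where 2.46% of all annotations were higher.

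Complement, the cascade of plasma proteins made largely by hepatocytes that marks and lyses microbes, was higher on balance. Of 27 annotations 25 were above 0 and the median was 0.47. At an unadjusted p under 0.05, 4 were higher and 0 lower, where 2.46% of all annotations were higher. The chain *c1qb* (ENSDARG00000044612), made by macrophages rather than hepatocytes, had 87.2, 62.9 and 56.4 CPM against 21.9 to 53.7 (median 32.1), a log2 fold change of 0.95 (SE 0.27). Clusterin (ENSDARG00000010434), an inhibitor of the terminal complex, had 28.3, 29.9 and 24.1 CPM against 14.3 to 23.9, and *c5* (ENSDARG00000021004) had 3839, 2724 and 3558 CPM against 1750 to 2708. In these 3 of the 27 genes every exposed fish was above every control, where 1.31% of all annotations were so placed. The margin was narrow in fish 3 for clusterin and in fish 2 for *c5*.

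The pore-forming component *c9* (ENSDARG00000016319) had 16369 CPM in fish 1, 3838 in fish 2 and 7897 in fish 3 against 1631 to 7354 in the controls (median 3475), with a log2 fold change of 1.1999 (SE 0.53). Exposed fish 1 was above all controls in 21 of the 27 complement annotations, fish 2 in 5 and fish 3 in 7. These are 77.8%, 18.5% and 25.9%, against 16.3%, 10.7% and 14.2% of all annotations. Without fish 1 the median was 0.13 and 21 were above 0. Then 2 were higher at an unadjusted p under 0.05, where 142 of 10753 annotations were. Without control fish 1, 7 were higher at that threshold, where 298 of 10752 annotations were. The acute phase protein serum amyloid A (ENSDARG00000045999) had 652 CPM in fish 1 against 43.4 and 37.4 in the others and 7.38 to 184 in the controls, and hemopexin (ENSDARG00000012609), a heme carrier of plasma, had 12511, 1671 and 3736 CPM against 1986 to 3855. Their log2 fold changes were 2.08 and 0.99, and -0.52 and -0.15 without exposed fish 1, while that of serum amyloid A was 2.91 without control fish 1. Fish 1, which was also the fish with high zona pellucida and *esr1* levels, had the highest summed level of 9 neutrophil markers, 1127 CPM against 387 and 663 in the other exposed fish and 329 to 713 in the controls, and the part of neutrophils in these values was not tested.

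Single interferon-related genes lay above most controls in exposed fish, while with all fish the list that holds them was near all annotations in its share with a low p. In the list of major histocompatibility complex and interferon-related genes, 24 of 31 annotations were above 0 and the median was 0.30. With all fish, 1 was higher at an unadjusted p under 0.05, where 2.46% of all annotations were. Without control fish 3, 7 were higher, where 283 of 10752 annotations were. Exposed fish 1, 2 and 3 lay above all controls in 9.68%, 12.9% and 6.45% of its members, against 16.3%, 10.7% and 14.2% of all annotations. The 1 member higher with all fish was *stat1b* (ENSDARG00000076182), a transcription factor activated by interferon receptors. It had 36.9, 28.3 and 18.9 CPM against 21.9 CPM in control fish 3 and 2.47 to 11.04 in the other controls. Its log2 fold change was 1.73 (SE 0.51, adjusted p = 0.846), and 2.21 (SE 0.41) without control fish 3. The antiviral enzyme *rsad2* (ENSDARG00000004952, viperin) had 38.1, 48.7 and 37.01 CPM against 58.5 in control fish 3 and 2.76 to 12.8 in the others, with log2 fold changes of 1.42 (SE 0.70) and, without control fish 3, 2.49. The transcription factor *irf7* (ENSDARG00000045661), which amplifies interferon production, had 4.41, 3.38 and 3.12 CPM against 4.61 in control fish 3 and 0.329 to 1.72 in the others, with log2 fold changes of 1.23 and, without control fish 3, 1.81.

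Separate from this list, *adar*, described above, and *nlrc5* (ENSDARG00000024631), in mammals a transactivator of major histocompatibility complex class I genes, had all exposed fish above all controls. The level of *nlrc5* was 8.42, 14.9 and 8.11 CPM against 1.58 to 5.15 (median 3.74), a log2 fold change of 1.54 (SE 0.35). A contig of *helz2*, an interferon-inducible helicase in mammals, had 9.07, 13.6 and 9.02 CPM against 3.07 to 6.54. When control fish 3 was left out, the quasi-likelihood test called 2 annotations, which were looked at only for that reason: si:dkey-26g8.12 (ENSDARG00000008098) and the uncharacterized protein LOC100005283 (ENSDARG00000075757). The first had 112, 127 and 87.8 CPM against 330 in control fish 3 and 15.5 to 37.02 in the others, with a log2 fold change of 0.56 (SE 0.86) with that fish and 2.198 (SE 0.28, adjusted p = 0.0396) without it. The second had 26.5, 43.02 and 24.95 CPM against 29.1 in control fish 3 and 3.78 to 8.88 in the others, with 1.71 (SE 0.52) and 2.37 (SE 0.31, adjusted p = 0.0396). Control fish 3 thus lay above the other controls in *stat1b*, *rsad2*, *irf7* and these 2 annotations, but among them in *adar* and *nlrc5*.

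In the direct comparison with fish at 34.4 ng E2/l, several of these genes were higher at 1.9 ng E2/l. The log2 difference was 2.72 in *stat1b* (adjusted p = 0.000362 from the quasi-likelihood test, 4.10 to 4.21 CPM at 34.4 ng E2/l), 2.01 in *rsad2* (adjusted p = 0.000276, 10.6 to 11.8 CPM) and 2.02 in *nlrc5* (adjusted p = 0.00957, 1.94 to 2.72 CPM), whereas that in *adar* was 0.40 (adjusted p = 0.415). The class II invariant chain *cd74* (ENSDARG00000009087), which guides antigen presentation, had 317, 309 and 296 CPM at 1.9 ng E2/l against 169, 168 and 176 CPM at 34.4 ng E2/l, while the controls spanned 124 to 346 CPM, with a log2 difference of 0.97 between the concentrations (adjusted p = 0.0101). Of 28 list members present for both concentrations, 9 were called higher at 1.9 ng E2/l and 0 lower with TMM, where 4.09% of all annotations were higher, and 4 and 0 with library totals, where 146 of 10559 were higher. Tank effects cannot be told apart from these differences either.

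**Figure D4:**
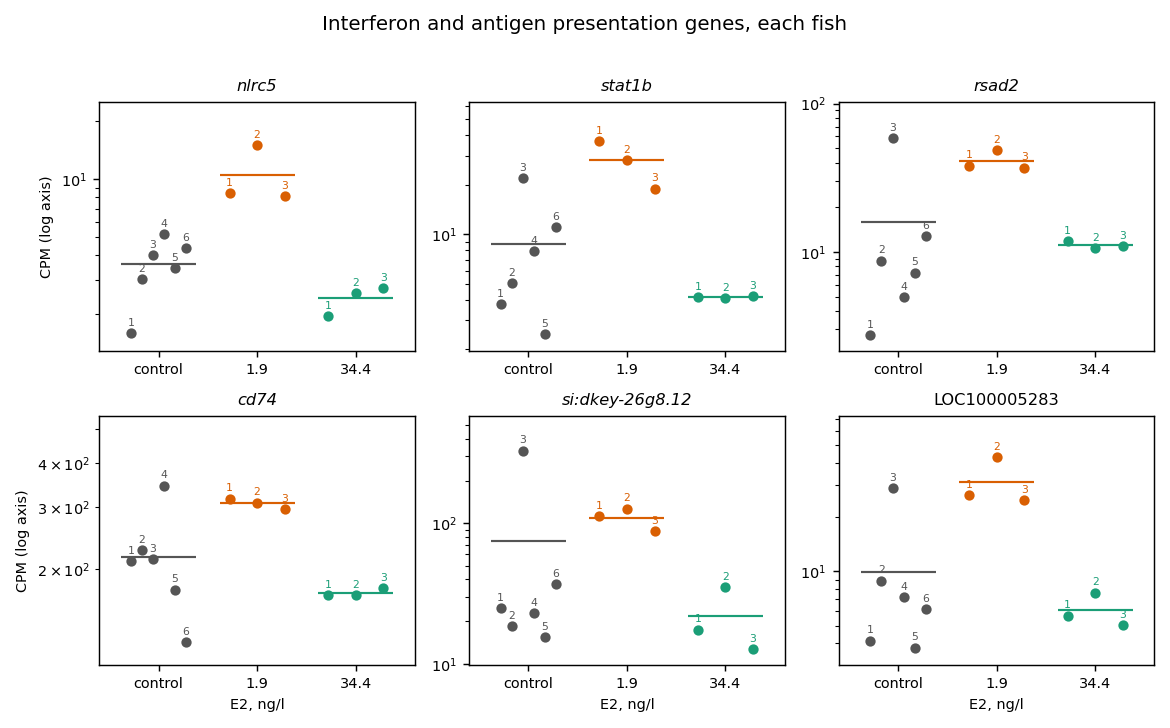
Level of *nlrc5*, *stat1b*, *rsad2*, *cd74*, si:dkey-26g8.12 and LOC100005283 in CPM on a log axis, in control fish (grey) and fish at 1.9 (orange) and 34.4 ng E2/l (green), each concentration scaled with the same controls in its own table. Points are single fish with their numbers and lines are group means. Control fish 3 lies with the exposed fish in *stat1b* and LOC100005283 and above them in *rsad2* and si:dkey-26g8.12.

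In several genes control fish 1 stood far above the other controls, and the log2 fold change was smaller in size without it. Phosphoenolpyruvate carboxykinase 1 (*pck1*, ENSDARG00000013522), an enzyme of gluconeogenesis, had 370 CPM in that fish, at most 5.47 in any other control, and 0, 0.541 and 1.66 CPM in exposed fish. Its log2 fold change was -6.43 (SE 2.66) with all controls and -1.25 without control fish 1. Glucose-6-phosphatase (ENSDARG00000013721), which releases glucose from liver cells, had 1388 CPM in control fish 1, 106 to 296 in the others, and 136, 107 and 100 CPM in exposed fish, with log2 fold changes of -1.80 and -0.80 and unadjusted p-values of 0.0287 and 0.0207 in the quasi-likelihood test with and without control fish 1. The log2 fold change also moved toward 0 in genes known to respond to glucocorticoids or cell stress: *ddit4* (ENSDARG00000037618) went from -3.02 to -0.70, *gadd45ba* (ENSDARG00000027744) from -2.60 to -0.65, *klf9* (ENSDARG00000068194) from -1.60 to -0.48 and *dusp1* (ENSDARG00000007628) from -2.93 to -0.00. Without that fish none of these other 4 genes, nor *pck1*, had an unadjusted p under 0.05.

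The median of the 46 genes of gluconeogenesis and glycolysis was -0.23 with control fish 1 and -0.09 without it, and that of the 32 proto-oncogenes and immediate early genes was -0.25 and 0.13. Glucokinase (*gck*, ENSDARG00000068006), which traps glucose in fed liver, divided the controls instead: fish 4 had 87.3 and fish 6 had 94.8 CPM, while every other control and every exposed fish had at most 1.73.

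**Figure D5:**
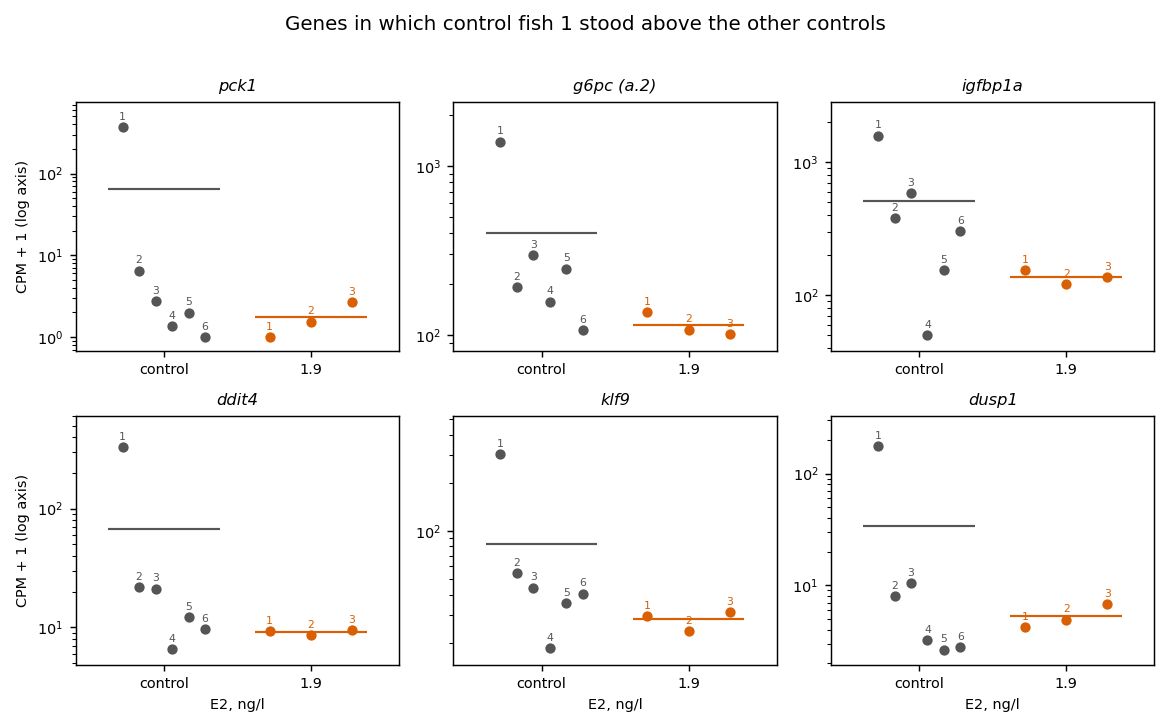
Level of *pck1*, glucose-6-phosphatase, *igfbp1a*, *ddit4*, *klf9* and *dusp1* in CPM plus 1 on a log axis, in the 6 control fish (grey) and the 3 fish exposed to 1.9 ng E2/l (orange). Points are single fish with their numbers and lines are group means; control fish 1 is the highest fish in every panel.

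Markers of other cell types were present in all fish, and none was at 0 throughout a group. Macrophage markers were higher in 11 of 12 annotations with a median of 0.56, and 4 were higher at an unadjusted p under 0.05, where 2.46% of all annotations were. Their summed level was 395, 367 and 315 CPM in the exposed fish and 181 to 329 in the controls, so that fish 3 overlapped. The receptor *csf1ra* (ENSDARG00000007889), on which macrophages depend, had 28.9, 21.6 and 24.5 CPM against 10.4 to 22.8, a log2 fold change of 0.60 (SE 0.27). Of the 12, 3 are the C1q chains of the complement list. The macrophage sum was lowest in exposed fish 3. The complement sum was 143540, 58939 and 90937 CPM in exposed fish 1, 2 and 3 against 34561 to 99224 in the controls, so that only fish 1 lay above them. The sum of the interferon-related list was 1515, 1986 and 1793 CPM, all within the controls' range of 1104 to 2014. The part of macrophages in the complement and interferon-related results was not tested.

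All 8 erythrocyte markers were above 0 with a median of 0.65, and 2 were higher at an unadjusted p under 0.05, where 2.46% of all annotations were. Adult α-globin (ENSDARG00000079078) had 744, 931 and 427 CPM against 151 to 574, a log2 fold change of 1.06 (SE 0.36), and the summed level of the list was 1790, 2660 and 1238 CPM against 364 to 1757. T lymphocyte markers summed to 73.2, 100 and 64.0 CPM against 69.7 to 120.5, B lymphocyte markers to 168, 182 and 159 against 136 to 214, and endothelial markers to 64.0, 89.3 and 77.6 against 78.0 to 99.4. Exocrine pancreas markers summed to 345, 195 and 237 CPM against 108 to 221, whereas the median log2 fold change of the 7 was -1.24, so sum and median differed in sign. Bile duct markers summed to 555, 605 and 663 CPM against 504 to 699, although *krt18* (ENSDARG00000028618), a keratin of simple epithelia, had 14.8, 7.17 and 9.36 CPM against 4.61 to 6.35.

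Across all genes the fish at 1.9 ng E2/l were also compared directly with those at the higher concentrations. In the fit of 3 against 3 fish, 698 of 10559 annotations, 6.61%, passed the quasi-likelihood test against 34.4 ng E2/l, 432 higher and 266 lower at 1.9 ng E2/l. Without exposed fish 3 there were 417. With library totals, which put the median of all annotations at -0.45, the split was 146 higher and 1039 lower. Complement had 18 of 27 annotations called higher at 1.9 ng E2/l and 0 lower, and 11 and 0 with library totals. Macrophage markers had 8 of 12 higher, and 3 with library totals. Nucleolar genes of ribosome biogenesis and RNA polymerases had 31 of 98 lower at 1.9 ng E2/l and 0 higher, and 48 and 0 with library totals.

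Against 18.1 ng E2/l, 0 of 10529 annotations and 0 of 52973 transcripts passed the quasi-likelihood test, while 327 annotations (3.11%) and 1433 transcripts (2.71%) had an unadjusted p under 0.05. DESeq2 called 4 annotations (0.038%) and 2 transcripts (0.00378%), the latter being contigs of trehalase and *thrsp*. Trehalase (ENSDARG00000077911), which splits the sugar trehalose, had 92.6, 119 and 146 CPM at 1.9 ng E2/l against 28.6, 38.5 and 34.5 CPM at 18.1 ng E2/l, a log2 difference of 1.85 (SE 0.31, DESeq2 adjusted p = 1.94e-05), while the controls spanned 32.7 to 210 CPM. The lipogenic gene *thrsp* (ENSDARG00000089241) had 93.2, 40.99 and 27.9 CPM at 1.9 ng E2/l against 10.3, 10.9 and 9.87 CPM at 18.1 ng E2/l, within the controls' range of 0.987 to 96.6 CPM. The remaining 2 were lower at 1.9 ng E2/l. Levels of *rcan2* (ENSDARG00000021869), a regulator of calcineurin, were 10.4, 18.9 and 8.32 CPM against 54.6, 32.7 and 39.9, while the controls spanned 12.8 to 34.6 CPM. Those of si:dkey-22f5.9 (ENSDARG00000092044) were 10.4, 10.01 and 6.45 CPM against 23.7, 24.002 and 50.3, all within the controls' range of 1.97 to 131 CPM. These levels come from separate tables that share the controls, each scaled on its own.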

How the data were processed

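Liver RNA of single fish was sequenced, and the deposited values are whole-number read counts per contig of a Trinity assembly, which the authors obtained with Bowtie2 2.1.0 (single best hit) and SAMtools 0.1.18, without normalization. Each table also holds the authors' own log fold changes and p-values, which were not used. No per-sample column was left without a sample (0). Counts of contigs with the same annotation were summed, features with at least 1 count in at least 3 of 9 fish were kept, and edgeR 4.0.16 (TMM, quasi-likelihood test, R 4.3.3, Benjamini-Hochberg, two-sided, 0.05) was run on 3 exposed and 6 control fish. The standard error is the log2 fold change over the square root of F. Direct comparisons used contigs in both tables and no controls. DESeq2 1.42.0, edgeR's exact test, limma-voom (limma 3.58.1), other scalings and filters, a replicate block and leaving out each fish were alternatives. Scripts were tested on simulated data. Total counts of 3885077 to 8616341 per fish limit precision for low contigs, and counts cover reads, not molecules.

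Gene names came from the files. Lists first written as symbols were rewritten as name patterns, since the files give names, and members and lists were chosen with earlier results of these data known. Genes named were the estrogen genes and the study's lists, the lowest p in each direction with separate groups, calls of any of the tests, and up to 4 per list, and anything else is said to be chosen after its values were seen.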

Additional observations from a re-analysis of the deposited data

Results flagged for a closer look

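Over all 10753 annotations, control fish 1 stood apart on the high side in 387 and control fish 3 in 165. Of 80 annotations checked singly, not all of them named above, 17 had 1 control fish far from the other 5, by the gap to the nearest fish over the range. For normally distributed values chance would set apart about 1 in 20 groups. The CPM were used without a log, however, and some of the 80 were chosen because a control fish changed their result. The count of 17 is therefore no test against that rate. Control fish 1 was the high fish in 11 of them: *pck1* at 370 CPM, *ddit4* at 330 CPM, *gadd45ba* at 247 CPM, *klf9* at 302 CPM, *dusp1* at 176 CPM, glucose-6-phosphatase at 1388 CPM, *igfbp1a* at 1580 CPM, *hsp90b1* at 1244 CPM, serum amyloid A at 184 CPM, a heat shock cognate 70-kd protein at 87.1 CPM and *aifm2* at 16.4 CPM. Control fish 3 was the high fish in 4: si:dkey-26g8.12 at 330 CPM, LOC100005283 at 29.1 CPM, *rsad2* at 58.5 CPM and *irf7* at 4.61 CPM. Control fish 4 stood apart in *eci1* at 49.2 CPM and control fish 6 in *zp2.2* at 63.0 CPM.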

How the results depend on the processing

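At 1.9 ng E2/l against control, DESeq2 called 12 transcripts and 8 annotations and the exact test 3 transcripts, where the quasi-likelihood test called 0. Leaving out each fish gave 0 transcripts and 0 to 2 annotations, the 2 without control fish 3. Against 34.4 ng E2/l, DESeq2 called 2289 transcripts and 948 annotations, library totals 1185 annotations, and leaving out each fish at 1.9 ng E2/l gave 774 to 1593 transcripts and 417 to 718 annotations. Against 18.1 ng E2/l DESeq2 called 2 transcripts and 4 annotations. The distance ratio was 0.989 to 1.097 without each fish. Leaving out each fish turned the sign of *zp2.2* (-1.15 to 1.91), *zp2.5* (-1.04 to 1.497), *zp3a.1* (-0.42 to 2.32), *zp3a.2* (-1.09 to 2.29), *esr1* (-0.20 to 1.73), *crot* (-0.26 to 0.97), serum amyloid A (-0.52 to 2.91), hemopexin (-0.15 to 1.44), *esr2b* (-0.073 to 0.20), *lpgat1* (-0.25 to 0.19) and *tat* (-0.41 to 0.083), all log2 fold changes, and library totals turned *esr2b* (-0.061). The cause was not tested. The lists with single fish left out (controls 1 and 3, exposed 1, 2 and 3) were examined after seeing the data.

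The deviations of same-numbered exposed and control fish had correlations of 0.161, -0.0377 and 0.0003. That of fish 1 was the highest between any exposed and any control fish, so whether the numbers mark a pairing cannot be told from these values. With the replicate block 0 transcripts and 0 annotations were called at 1.9 ng E2/l, with 928 annotations at an unadjusted p under 0.05, and 972 transcripts and 457 annotations against 34.4 ng E2/l.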
